A study of Mus musculus with 10 samples.

Results

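The comparison described here sets hearts of mice given interleukin-10 (IL-10) against hearts of mice given saline, across all genes of a deposited count table. Its members are the 6 heart libraries of a series of 10 libraries, chosen by their treatment label, with 3 hearts a group. Of the 55357 genes in the table, 13718 passed a filter on low counts and were tested. The series studies Cd163-expressing heart macrophages and IL-10 in an overloaded left ventricle. Its other 4 libraries are cultured peritoneal macrophages, both wild-type and Cd163-knockout, all treated with 100 nM of the glucocorticoid dexamethasone for 48 h. Both heart groups carried the same Cd163-/- genotype on a C57BL/6 background, so a knockout of the macrophage scavenger receptor CD163 is shared by controls and treated animals, and hearts with intact Cd163 are not part of the comparison. The design text describes male mice operated at 8 weeks of age by transverse aortic constriction, which narrows the aorta and loads the left ventricle with pressure. Recombinant mouse IL-10 was given subcutaneously, at 50 µg/kg/day, on set days from day 0 to day 27 after that operation. The labels do not state the operation for the single hearts, nor the part of the heart that was taken, nor that replicates are separate animals, so p-values reflect the spread among these libraries alone, some of which may be technical.

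A heart under pressure load is known to switch on genes of fetal heart muscle and of stretch sensing, to add microtubules and other cytoskeleton, and to turn resting fibroblasts into matrix-secreting myofibroblasts. Its muscle cells are also known to lower genes of fatty acid and branched-chain amino acid use and of repolarizing potassium currents. IL-10 is a cytokine made by macrophages and lymphocytes that acts through a receptor on the cell surface and the transcription factor STAT3, and is known for restraining inflammatory gene expression. In RNA of a whole heart, fewer cells of a type and less RNA per cell cannot be told apart.

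Libraries held 13.5 to 14.9 M counts (M for mega), and mitochondrially encoded genes took 33.7% to 39.4% of them. Levels are stated in CPM, which is counts per M counts with library sizes scaled by TMM. On library sizes before that scaling, 3 counts correspond to 0.201 to 0.222 CPM. Cd163 itself stood at 3.29, 3.43 and 3.65 CPM in the saline hearts and 2.55, 3.16 and 2.39 CPM in the IL-10 hearts. The labels do not say which part of the gene was removed, so these reads check nothing about the genotype. Il10ra, the ligand-binding chain of the IL-10 receptor and chosen after its values were seen, stood at 7.47, 6.20 and 13.2 CPM in the saline hearts and 10.2, 6.54 and 7.17 CPM in the IL-10 hearts, and the groups overlapped. The defining markers of heart muscle were present in every heart, with all 16 listed cardiomyocyte genes tested. Of 12 skeletal muscle markers only 3 passed the count filter, and Myh1, Myh2, Myh4 and Tnnc2 had 0 counts in all 6 hearts.

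In IL-10 relative to saline hearts, 941 genes were higher (6.86% of those tested) and 919 lower (6.70%), or 13.6% in either direction (quasi-likelihood test of edgeR, p adjusted by Benjamini-Hochberg under 0.05). In 15.7% of tested genes every IL-10 heart lay above every saline heart and in 15.8% below, and 79 called genes had overlapping groups. With upper-quartile scaling in place of TMM the calls split into 716 higher and 1120 lower, which moved the higher genes from 50.6% to 39.0% of all calls. Higher genes numbered 451, 930 and 599 without saline 1, 2 and 3 and 620, 450 and 1082 without IL-10 1, 2 and 3. The number of lower genes was 561, 1012 and 548 without the same saline hearts and 638, 447 and 886 without the same IL-10 hearts. Leaving out IL-10 replicate 2 gave the fewest calls in both directions.

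**Figure D1:**
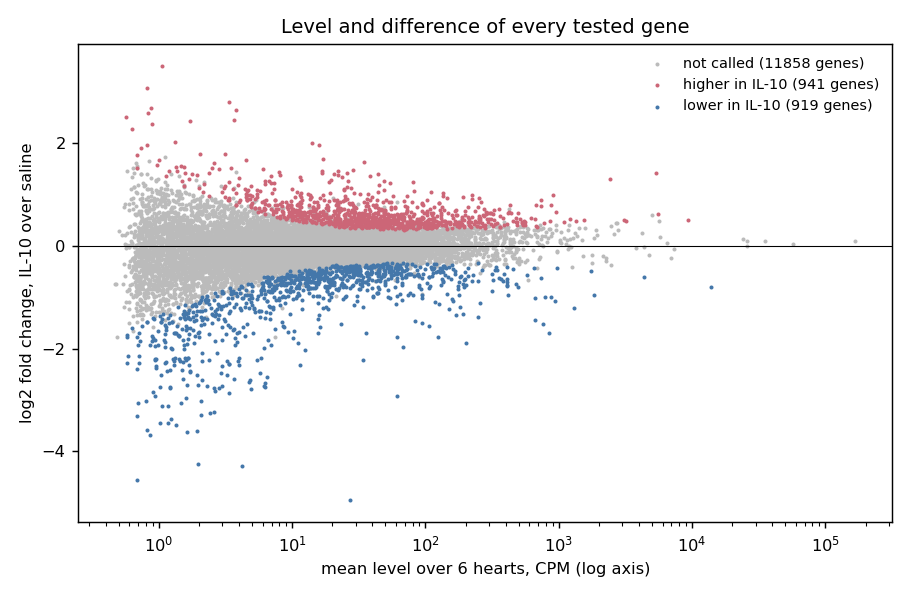
Mean level over the 6 hearts (horizontal, CPM, log axis) against the log2 fold change of IL-10 over saline (vertical) for all 13718 tested genes, coloured by call. The 919 lower genes spread further from 0 than the 941 higher genes, and higher genes are dense among well expressed genes.

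Rises were shallow and lay among well expressed genes, and falls were steeper. The median log2 fold change was 0.56 among the higher and -0.79 among the lower genes, and 111 higher against 343 lower genes differed by more than 2-fold. The median level was 37.1 CPM for the higher genes and 13.6 CPM for the lower genes, beside 13.5 CPM for all tested genes. Of tested genes under 1 CPM, 1.71% were higher, and of those between 100 and 1000 CPM 18.1% were higher, while the lower genes ran from 5.43% to 9.49% over the same bins. Summed over the 941 higher genes, levels were 81071, 90329 and 80959 CPM in the saline hearts and 130024, 134051 and 119598 CPM in the IL-10 hearts. Summed over the 919 lower genes they were 77472, 78716 and 90704 CPM and then 48202, 48747 and 49470 CPM. These genes were chosen for differing between the same hearts, so the sums only show how much RNA they held. In the lists described below with 0 calls in a direction, at most 2 genes had an unadjusted p under 0.05 in that direction, and DESeq2 and limma-voom called 0 there. The cell cycle, extracellular matrix and interferon lists, kept apart here as the reference lists, held 88 of the 919 lower genes and 1 of the 941 higher genes, and the results that follow are mainly about the other genes.

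**Figure D2:**
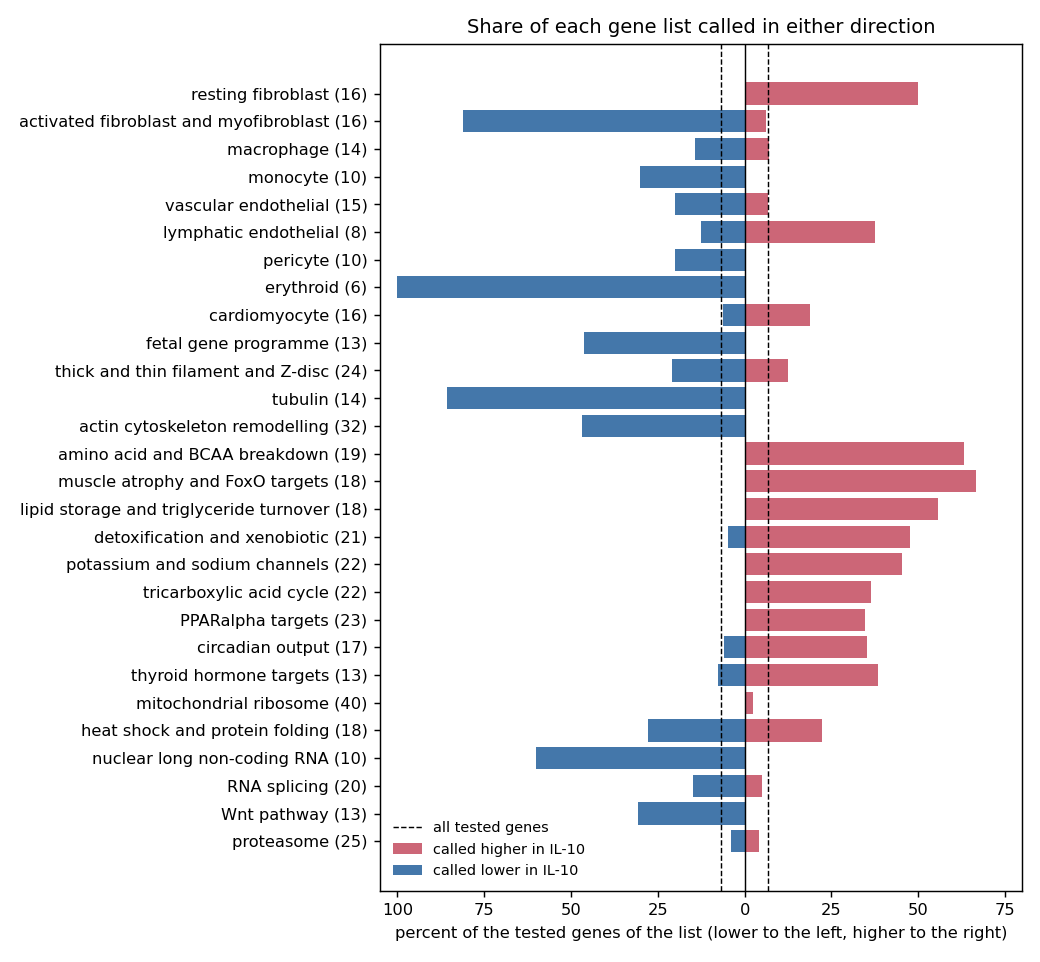
Percent of the tested genes of 28 lists that were called higher (right of 0) or lower (left of 0) in IL-10 hearts, with the number of tested genes in brackets and dashed lines at the 6.86% and 6.70% of all tested genes. Fuel use, protein breakdown and channel lists extend to the right, and cytoskeleton, activated fibroblast and erythroid lists to the left.

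Fibroblast genes moved in opposite directions according to the state they mark. Of 16 tested genes of resting fibroblasts, 8 rose and 0 fell, with a median log2 fold change of 0.35, beside 6.86% of all tested genes higher and a median of -0.01. Hsd11b1, the enzyme that regenerates active glucocorticoid, was at 13.0, 12.3 and 16.7 CPM in the saline hearts and 38.0, 35.3 and 40.1 CPM in the IL-10 hearts (log2 fold change 1.43, SE 0.13; edgeR adjusted p = 1.09e-05). Inmt, an amine methyltransferase abundant in fibroblasts, was at 0.659, 0.948 and 0.897 CPM in the saline hearts and 8.01, 5.80 and 3.80 CPM in the IL-10 hearts (log2 fold change 2.80, SE 0.34; edgeR adjusted p = 8.49e-05). The lowest IL-10 heart lay above the highest saline heart for both. Gsn, the actin-severing protein gelsolin, and Scara5, a ferritin receptor, rose by log2 0.90 and 0.94, and C1s1, Fbln1, Dcn and Dpt rose by 0.59, 0.59, 0.47 and 0.40. The marker genes of the lineage as a whole, Pdgfra (log2 0.19) and Tcf21 (-0.34), did not pass the test. Dcn was not called without saline 1, saline 3, IL-10 2 or IL-10 3 (edgeR adjusted p up to 0.104), and Dpt not without saline 1, saline 3, IL-10 2 or IL-10 3 (up to 0.116).

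Of 16 tested genes of activated fibroblasts and myofibroblasts, 13 fell and 1 rose, with a median of -1.45. Several belong to the matrix list as well. Thbs4, the matricellular protein thrombospondin 4, was at 109, 107 and 148 CPM in the saline hearts and 46.8, 32.7 and 53.4 CPM in the IL-10 hearts (log2 fold change -1.46, SE 0.16; edgeR adjusted p = 4.94e-05). Ccn4, a secreted Wnt-induced signalling protein, was at 10.8, 5.76 and 12.8 CPM in the saline hearts and 1.93, 2.79 and 2.67 CPM in the IL-10 hearts (log2 fold change -1.99, SE 0.28; edgeR adjusted p = 0.000321). Meox1, a homeobox factor of the activated state, was at 88.0, 80.8 and 125 CPM in the saline hearts and 51.8, 45.0 and 54.6 CPM in the IL-10 hearts (log2 fold change -0.96, SE 0.15; edgeR adjusted p = 0.000590). The gene of this list that rose was Scx, the tendon factor scleraxis, at 6.37, 7.29 and 8.71 CPM in the saline hearts and 11.8, 11.2 and 11.2 CPM in the IL-10 hearts. Fap (log2 0.03) and Nox4 (0.19) did not pass the test. Saline 3 was the highest saline heart for all 16 genes, and the summed level of the list was 1979.9, 1897 and 2681 CPM in the saline hearts and 819, 780.1 and 1078 CPM in the IL-10 hearts. The resting list summed to 2526, 2774 and 2351 CPM in the saline hearts and 3260.1, 3414 and 3792 CPM in the IL-10 hearts. Among saline hearts its order was the reverse of that of the activated list, and among IL-10 hearts it was not. Without saline 3 the activated list still had 12 lower genes and the resting list 6 higher genes. Scx was not called without saline 1, IL-10 1 or IL-10 2 (edgeR adjusted p up to 0.111).

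Other large rises included genes of secreted proteins and of retinoic acid breakdown. Angptl7, a secreted angiopoietin-like protein, was at 1.32, 0.583 and 1.22 CPM in the saline hearts and 8.42, 5.14 and 6.12 CPM in the IL-10 hearts (log2 fold change 2.64, SE 0.32; edgeR adjusted p = 8.25e-05). Clec3b, the plasminogen-binding protein tetranectin, was at 15.4, 15.8 and 14.2 CPM in the saline hearts and 50.8, 38.0 and 37.3 CPM in the IL-10 hearts (log2 fold change 1.47, SE 0.14; edgeR adjusted p = 1.04e-05). Myoc, the secreted protein myocilin, was at 3.59, 3.72 and 2.24 CPM in the saline hearts and 9.04, 9.55 and 8.23 CPM in the IL-10 hearts (log2 fold change 1.50, SE 0.22; edgeR adjusted p = 0.000451). Cyp26b1, which degrades retinoic acid, was at 1.68, 0.875 and 0.833 CPM in the saline hearts and 8.08, 4.19 and 6.33 CPM in the IL-10 hearts (log2 fold change 2.46, SE 0.33; edgeR adjusted p = 0.000226). For all 4 genes the groups were separate, and IL-10 1 was the highest heart for all but Myoc.

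**Figure D3:**
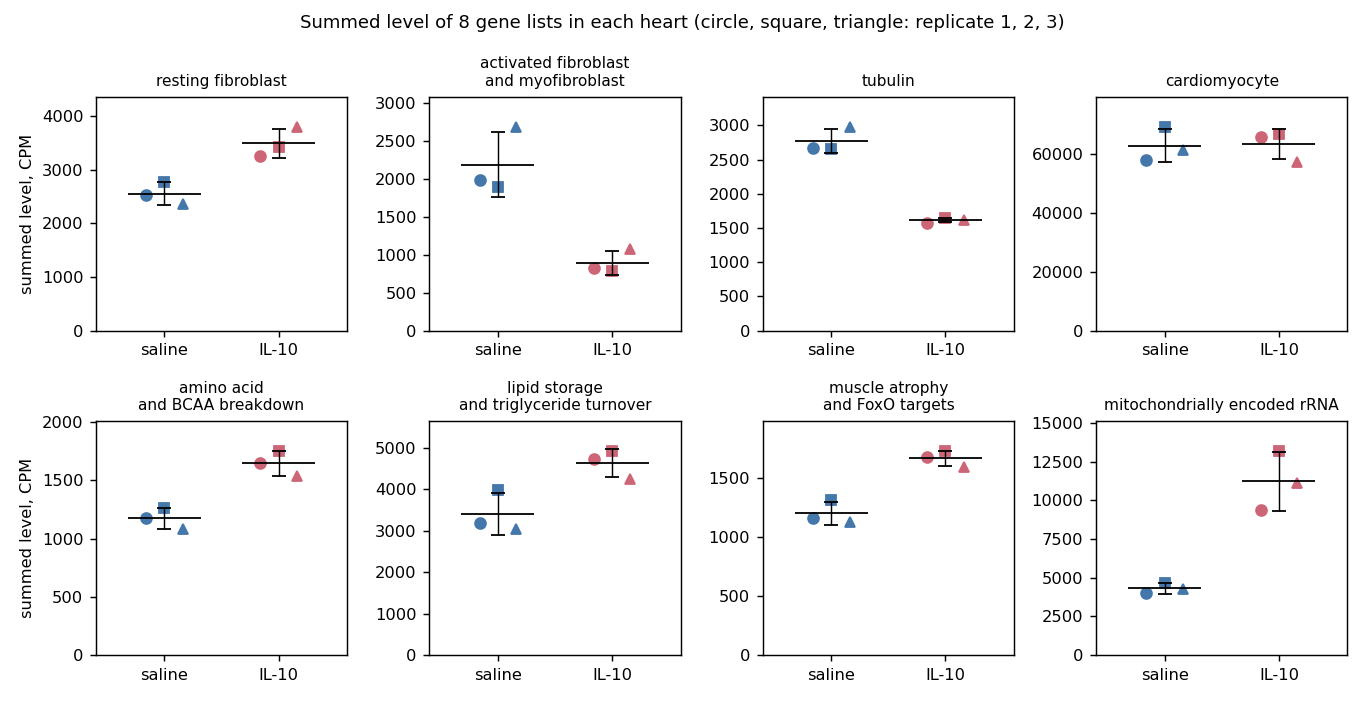
Summed level of 8 gene lists in each heart (vertical, CPM, from 0), with saline hearts at left and IL-10 hearts at right of each panel, the group mean as a line and 1 SD as the error bar. The groups are separate in all panels but that of cardiomyocyte markers, where the saline hearts run from 58030 to 69155 CPM and the IL-10 hearts from 57398 to 66865 CPM.

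Heart muscle markers had overlapping groups in their summed level. Of 16 cardiomyocyte markers 3 rose and 1 fell, with a median of 0.20 and a summed level that went from 62849 ± 5709 to 63356 ± 5187 CPM (SD, n = 3 each). Atp2a2, the calcium pump of the sarcoplasmic reticulum, was at 3942, 4974 and 4100.4 CPM in the saline hearts and 6892, 6868 and 6268 CPM in the IL-10 hearts (log2 fold change 0.62, SE 0.15; edgeR adjusted p = 0.00976). Myl3, the ventricular essential light chain, and Mb, the oxygen store myoglobin, rose by log2 0.51 and 0.51. Without saline 1 none of these 3 was called, and Atp2a2 then had a log2 fold change of 0.56 (edgeR adjusted p = 0.074). Actc1, the cardiac alpha-actin, was at 15203, 18575 and 19327 CPM in the saline hearts and 11718, 10509 and 8409.8 CPM in the IL-10 hearts (log2 fold change -0.79, SE 0.17; edgeR adjusted p = 0.00557). Per kilobase of exon it held 10941 CPM in saline and 6312 CPM in IL-10 hearts, the highest of any nuclear gene named here in saline hearts, where Mb held 5126 and then 7280. Myh6, Myl2, Tnnt2 and Acta1, which with these are among the 10 nuclear genes of highest level, had log2 fold changes of 0.06, 0.16, -0.03 and 0.25 and did not pass the test, and neither did Tpm1 (-0.24) and Hspb7 (-0.05). Myl3 was not called without saline 1, saline 3, IL-10 1 or IL-10 2 (edgeR adjusted p up to 0.131), and Mb not without saline 1, saline 3, IL-10 1 or IL-10 2 (up to 0.118).

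The fetal gene programme, the set of genes that adult ventricles re-express under load, had 6 of 13 tested members lower and 0 higher, with a median of -0.44. Nppa (ENSMUSG00000041616, chromosome 4, 148000722 to 148002079), the atrial natriuretic peptide, was at 875, 1612 and 1403 CPM in the saline hearts and 546, 248 and 400.3 CPM in the IL-10 hearts (log2 fold change -1.70, SE 0.24; edgeR adjusted p = 0.000357). Pfkp, the platelet-type phosphofructokinase of glycolysis, was at 109, 126 and 135 CPM in the saline hearts and 64.6, 66.8 and 60.0 CPM in the IL-10 hearts (log2 fold change -0.95, SE 0.11; edgeR adjusted p = 7.68e-05). H19, a fetal non-coding RNA, fell by 0.77 on the log2 scale, and Ankrd1, a stretch-sensing titin partner, by 0.61. Myh7 (log2 -0.43), Nppb (-0.40) and Acta1 (0.25) did not pass the test. Nppa also marks atrial muscle. Of 9 tested atrial markers 1 rose and 2 fell, with a median of -0.12, and Bmp10 had 0 counts in every heart. The 2 that fell were Nppa and Clu, a secreted chaperone described below. By log2 fold change 4 of the 9 lay above 0 and 5 below. The summed level went from 3408 ± 706 to 1957 ± 128 CPM (SD, n = 3 each), and Nppa and Clu were large parts of it in both groups. Whether the amount of atrial tissue had a part in the difference in Nppa was not tested. Ankrd1 was not called without saline 2, saline 3, IL-10 1 or IL-10 2 (edgeR adjusted p up to 0.116).

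Genes of the Z-disc, which anchors the thin filaments, split. Of 24 tested thick filament, thin filament and Z-disc genes 3 rose and 5 fell (median -0.09). Xirp2, an actin-binding repeat protein of injured and remodelling muscle, was at 1727, 1244 and 2519 CPM in the saline hearts and 758, 828 and 795 CPM in the IL-10 hearts (log2 fold change -1.21, SE 0.19; edgeR adjusted p = 0.000749). Synpo2l, a Z-disc protein, was at 609, 592 and 683 CPM in the saline hearts and 316, 353 and 407 CPM in the IL-10 hearts (log2 fold change -0.81, SE 0.13; edgeR adjusted p = 0.000716). Cryab, the small heat shock protein alpha-B-crystallin, was at 2083, 2197 and 2973 CPM in the saline hearts and 1342, 1342 and 1060.5 CPM in the IL-10 hearts (log2 fold change -0.95, SE 0.16; edgeR adjusted p = 0.00100), and Flnc, filamin C, fell by 0.65 on the log2 scale. Tcap, the titin cap, was at 289.9, 404 and 291 CPM in the saline hearts and 508, 562 and 488 CPM in the IL-10 hearts (log2 fold change 0.66, SE 0.14; edgeR adjusted p = 0.00516), and Myoz2 and Lmod2 rose by 0.53 and 0.41. In this list saline 3 was the highest heart for the fallers Xirp2, Synpo2l and Cryab. The count of higher genes was 1, 3 and 1 without saline 1, 2 and 3 and 2, 1 and 3 without IL-10 1, 2 and 3. Myoz2 was not called without saline 1, saline 3 or IL-10 2 (edgeR adjusted p up to 0.0703), and Lmod2 not without saline 1, saline 3, IL-10 1 or IL-10 2 (up to 0.183).

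Promoters of Xirp2 and Synpo2l are shown because both genes fell and both hold the letters CTAAAAATA, on either strand, an element that factors of the MEF2 family bind in muscle. Sequences are from RefSeq promoters of GRCm38.p6, read 5′ to 3′ on the strand of the gene, with the element in capitals.
Xirp2, chr2:67445898-67445966, plus strand: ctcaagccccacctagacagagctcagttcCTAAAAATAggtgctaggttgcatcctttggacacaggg
Synpo2l, chr14:20664679-20664747, minus strand: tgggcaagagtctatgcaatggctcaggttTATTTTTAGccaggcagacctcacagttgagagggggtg
The element starts 74 bases before the start of Xirp2 and 143 bases before that of Synpo2l. Of 10203 tested genes matched to a promoter of 250 bases before to 50 bases after the start, 0.431% hold it, beside 0.694% of 720 higher genes, 0.429% of 700 lower genes and 0.517% of all promoters in the table. The third lower gene with it was Hspb1, another small heat shock protein. Hspb1 was not called without saline 1, saline 3, IL-10 1 or IL-10 3 (edgeR adjusted p up to 0.195).

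The steepest falls outside the cell cycle list were again muscle stress genes and genes of dividing cells. Nmrk2 (ENSMUSG00000004939, chromosome 10, 81198170 to 81202051), the muscle kinase that phosphorylates nicotinamide riboside, a precursor of NAD, was at 80.5, 119 and 127 CPM in the saline hearts and 15.7, 13.3 and 14.3 CPM in the IL-10 hearts (log2 fold change -2.92, SE 0.16; edgeR adjusted p = 3.63e-08). Fhl1 (ENSMUSG00000023092, chromosome X, 56731787 to 56793346), a LIM-domain sensor of stretch, was at 1175, 990.0 and 1228 CPM in the saline hearts and 364, 498 and 329 CPM in the IL-10 hearts (log2 fold change -1.51, SE 0.16; edgeR adjusted p = 2.47e-05). Sprr1a (ENSMUSG00000050359, chromosome 3, 92483952 to 92485895), a stress-induced small proline-rich protein, was at 42.4, 15.5 and 98.6 CPM in the saline hearts and 0.828, 2.35 and 1.90 CPM in the IL-10 hearts (log2 fold change -4.95, SE 0.55; edgeR adjusted p = 3.90e-05). Nmrk2 and Fhl1 were closer together within each group, whereas Sprr1a ran over a wide range among saline hearts and every one of those still lay above every IL-10 heart. Tnnt3, the troponin T of fast skeletal muscle, was at 1.24, 1.31 and 4.16 CPM in the saline hearts and 0.483, 0.147 and 0 CPM in the IL-10 hearts (log2 fold change -3.36, SE 0.70; edgeR adjusted p = 0.00467), so its fall rests on few counts. Clu, the secreted chaperone clusterin, was at 964, 1141 and 1703 CPM in the saline hearts and 573, 611 and 635 CPM in the IL-10 hearts (log2 fold change -1.06, SE 0.17; edgeR adjusted p = 0.000845). Of the 15 largest falls by the naming rule, Pimreg, Pbk, Depdc1a, Iqgap3, Hmmr, Zwilch, Kif18b, Ect2, Diaph3, Ckap2l, Ckap2 and Cdca3 act in mitosis or cytokinesis (a grouping made with their values known), with log2 fold changes from -3.63 to -2.77. None of these 12 is in the cell cycle list. No IL-10 heart held more than 0.773 CPM of Hmmr, the hyaluronan receptor of dividing cells, and no saline heart less than 4.10 CPM.

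The tubulin list was the most uniform of the cytoskeleton. Of 14 tested genes 12 fell and 0 rose, with a median of -0.92, beside 6.70% of all tested genes lower. Tubulins are the subunits of microtubules, whose build-up is known to stiffen overloaded heart muscle cells. Tuba1b was at 228, 213 and 321 CPM in the saline hearts and 106, 111 and 119 CPM in the IL-10 hearts (log2 fold change -1.18, SE 0.14; edgeR adjusted p = 8.49e-05). Tuba4a was at 1018, 1072 and 1055 CPM in the saline hearts and 526, 576 and 467 CPM in the IL-10 hearts (log2 fold change -1.0, SE 0.12; edgeR adjusted p = 9.93e-05). Tubb5 was at 216, 184 and 239 CPM in the saline hearts and 87.0, 105 and 120.3 CPM in the IL-10 hearts (log2 fold change -1.03, SE 0.13; edgeR adjusted p = 0.000157). Tuba4a was spread little within either group, while saline 3 was the highest heart for Tuba1b and Tubb5. Per kilobase of exon, Tuba4a held 283 and 141 CPM, Tuba1b 135 and 59.7, and Tubb5 64.0 and 31.3 in saline and IL-10 hearts, so Tuba4a was the highest of the 3 in both groups. The summed level of the list was 2674, 2663 and 2975 CPM in the saline hearts and 1579, 1645 and 1623 CPM in the IL-10 hearts. Map4 (log2 0.04), a protein that coats microtubules, and Tubb4a (-0.66) did not pass the test. The count was 11 or 12 with any 1 heart left out. Some tubulin genes are near-identical copies, and how the counting shared reads between them is not given in the sources used here.

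Of 32 tested genes of actin remodelling 15 fell and 0 rose (median -0.36). Capg, an actin filament capper of macrophages and fibroblasts, was at 43.3, 38.3 and 41.0 CPM in the saline hearts and 18.4, 22.7 and 27.5 CPM in the IL-10 hearts (log2 fold change -0.84, SE 0.14; edgeR adjusted p = 0.000897). S100a11, a calcium-binding partner of annexins, was at 88.0, 68.7 and 95.7 CPM in the saline hearts and 42.7, 48.3 and 57.2 CPM in the IL-10 hearts (log2 fold change -0.77, SE 0.14; edgeR adjusted p = 0.00159). Actn1, the non-muscle alpha-actinin, fell by 0.84, Anxa2 by 0.68, Flna by 0.64 and Actb, cytoplasmic beta-actin, by 0.57 on the log2 scale. The count of lower genes was 9, 18 and 9 without saline 1, 2 and 3 and 8, 7 and 17 without IL-10 1, 2 and 3. Myl6 (-0.32) and Actg1 (-0.37) did not pass. Flna was not called without IL-10 2 (edgeR adjusted p up to 0.0603), and Actb not without IL-10 2 (up to 0.0521).

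Of the genes of branched-chain amino acid breakdown the larger part passed the test, all upward. These enzymes take leucine, isoleucine and valine to fuels of the tricarboxylic acid cycle inside mitochondria. Of 19 tested genes 12 rose, 0 fell and all 19 had a positive log2 fold change, with a median of 0.42, beside -0.01 for all tested genes. Ivd, which oxidizes the product of leucine, was at 129, 136 and 130.4 CPM in the saline hearts and 271, 266 and 225 CPM in the IL-10 hearts (log2 fold change 0.95, SE 0.11; edgeR adjusted p = 8.25e-05). Bckdha, the catalytic subunit of the dehydrogenase that commits the pathway, was at 23.4, 26.5 and 24.3 CPM in the saline hearts and 48.1, 42.8 and 42.7 CPM in the IL-10 hearts (log2 fold change 0.85, SE 0.11; edgeR adjusted p = 0.000182). Its partner subunit Bckdhb rose by 0.46, and so did the phosphatase Ppm1k (0.63), which activates the complex, and the kinase Bckdk (0.42), which inactivates it. The summed level was 1175, 1263 and 1082 CPM in the saline hearts and 1652, 1749 and 1536 CPM in the IL-10 hearts, with the groups separate. Counts of higher genes were 5, 14 and 6 without saline 1, 2 and 3 and 8, 4 and 16 without IL-10 1, 2 and 3. Bckdhb was not called without saline 3 or IL-10 2 (edgeR adjusted p up to 0.0753), Ppm1k not without IL-10 2 (up to 0.0624), and Bckdk not without saline 1, IL-10 1 or IL-10 2 (up to 0.0823).

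Genes of lipid storage rose in part. Of 18 tested genes of triglyceride synthesis, droplet coats and lipases 10 rose and 0 fell (median 0.43). Dgat2, which adds the last acyl chain of triglyceride, was at 76.6, 100.0 and 88.9 CPM in the saline hearts and 229, 175 and 141 CPM in the IL-10 hearts (log2 fold change 1.04, SE 0.15; edgeR adjusted p = 0.000490). Fitm2, which buds lipid droplets from the endoplasmic reticulum, was at 85.9, 105 and 101 CPM in the saline hearts and 153, 160.0 and 127 CPM in the IL-10 hearts (log2 fold change 0.59, SE 0.12; edgeR adjusted p = 0.00439). The lipase Pnpla2 (log2 0.41) and its inhibitor G0s2 (0.62) both rose, as did the droplet coat protein Plin4 (0.41). Lpl (0.44) and Plin2 (0.25) did not pass. The number of higher genes was 3, 11 and 5 without saline 1, 2 and 3 and 4, 4 and 12 without IL-10 1, 2 and 3. Pnpla2 was not called without saline 1, IL-10 1 or IL-10 2 (edgeR adjusted p up to 0.198), G0s2 not without saline 1, saline 3, IL-10 1 or IL-10 2 (up to 0.0960), and Plin4 not without saline 1, IL-10 1 or IL-10 2 (up to 0.115).

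Fatty acid oxidation and the tricarboxylic acid cycle moved in part. Of 23 tested targets of PPARalpha, the nuclear receptor for fatty acids, 8 rose and 0 fell (median 0.39). Mlycd, which removes malonyl-CoA and so frees fatty acid entry into mitochondria, was at 40.3, 40.5 and 41.9 CPM in the saline hearts and 74.8, 70.7 and 60.9 CPM in the IL-10 hearts (log2 fold change 0.75, SE 0.11; edgeR adjusted p = 0.000450). Ech1 and Hadhb, enzymes of beta-oxidation, rose by 0.77 and 0.66, and the fatty acid transporter Cd36 by 0.50. Ppara itself (0.43) and its targets Pdk4 (0.29) and Angptl4 (-0.17) did not pass. Higher genes numbered 5, 12 and 3 without saline 1, 2 and 3 and 8, 3 and 11 without IL-10 1, 2 and 3. Cd36 was not called without saline 1, saline 3 or IL-10 2 (edgeR adjusted p up to 0.161).

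Of 22 tested genes of the tricarboxylic acid cycle 8 rose and 0 fell (median 0.32). Idh2, the NADP-dependent isocitrate dehydrogenase, was at 626, 669 and 608 CPM in the saline hearts and 1185, 1131 and 988 CPM in the IL-10 hearts (log2 fold change 0.80, SE 0.12; edgeR adjusted p = 0.000655). Sdhc, Sdhb and Suclg2 rose by 0.51, 0.48 and 0.44, while Cs, citrate synthase, had a log2 fold change of 0.13, which did not pass. Counts of higher genes were 2, 7 and 3 without saline 1, 2 and 3 and 3, 2 and 9 without IL-10 1, 2 and 3, and with upper-quartile scaling it was 4. Among mitochondrial ribosomal proteins 1 of 40 rose and 0 fell (median 0.07), a share below the 6.86% of all tested genes, and among import and assembly genes 1 of 24 rose. Genes of mitochondrial fusion and biogenesis had 4 of 17 higher, with Perm1, a muscle partner of oxidative gene regulators, at log2 0.47 and Ppargc1a at 0.29, which did not pass. The count of that list was 0, 4 and 2 without saline 1, 2 and 3 and 0, 0 and 7 without IL-10 1, 2 and 3. Sdhb was not called without saline 1, saline 3, IL-10 1 or IL-10 2 (edgeR adjusted p up to 0.102), Suclg2 not without saline 1 or IL-10 2 (up to 0.0819), and Perm1 not without saline 1, IL-10 1 or IL-10 2 (up to 0.140).

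Transcripts encoded in mitochondria differed by their class. Both ribosomal RNAs rose: mt-Rnr2 was at 2625, 3144 and 2926 CPM in the saline hearts and 6380.3, 9134 and 7696 CPM in the IL-10 hearts (log2 fold change 1.42, SE 0.16; edgeR adjusted p = 4.94e-05), and mt-Rnr1 at 1349.6, 1502 and 1362 CPM in the saline hearts and 2993, 4015 and 3428 CPM in the IL-10 hearts (log2 fold change 1.31, SE 0.14; edgeR adjusted p = 3.90e-05). Of 16 tested transfer RNAs 10 rose and 0 fell (median 0.68), among them mt-Ti at 1.10, 1.17 and 1.54 CPM in the saline hearts and 2.90, 3.60 and 5.20 CPM in the IL-10 hearts. Of the 13 messenger RNAs 0 were called by edgeR, DESeq2 or limma-voom and 2 had an unadjusted p under 0.05, with a median of 0.09. Without saline 2, 1 of them was higher and 1 lower, and without IL-10 1, 1 was higher. With no filter on low counts 3 were higher and 1 lower by edgeR. IL-10 2 was the highest heart for both ribosomal RNAs. The labels give poly(A) RNA for these libraries, and any part of RNA selection in these values was not tested.

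**Figure D4:**
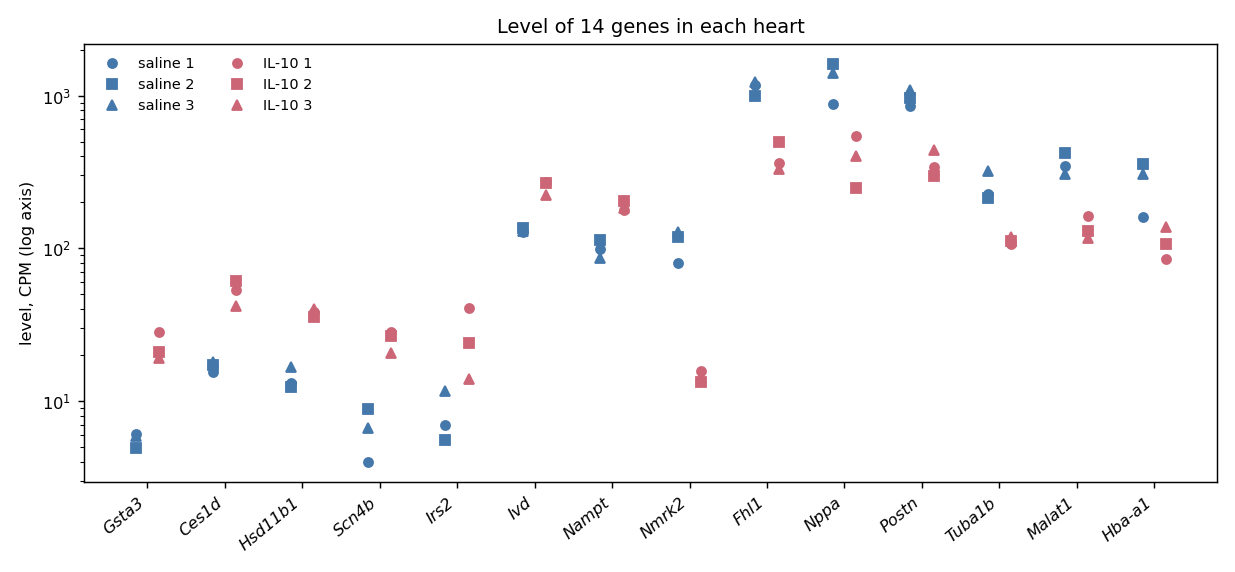
Level of 14 genes in each heart (vertical, CPM, log axis). Saline hearts are in blue at left and IL-10 hearts in red at right of each gene, with the shape giving the replicate. All but Postn, a gene of the matrix list, are named in the text. The groups are separate for all 14 genes, and rises are shown first, from Gsta3 to Nampt.

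Most tested genes of muscle protein breakdown and FoxO targets rose. FoxO factors are held out of the nucleus by insulin signalling and drive ubiquitin ligases and autophagy when it falls. Of 18 tested genes 12 rose and 0 fell (median 0.49). Irs2, the insulin receptor substrate, was at 6.95, 5.54 and 11.7 CPM in the saline hearts and 40.5, 24.0 and 13.9 CPM in the IL-10 hearts (log2 fold change 1.69, SE 0.31; edgeR adjusted p = 0.00184). Bnip3 and Pink1, which mark mitochondria for removal, were at 118, 129 and 131 CPM in the saline hearts and 203, 207 and 166 CPM in the IL-10 hearts and at 184, 215 and 209.7 CPM in the saline hearts and 308, 309.6 and 294 CPM in the IL-10 hearts, with log2 fold changes of 0.61 and 0.58. The ubiquitin ligases of muscle Trim63 (MuRF1) and Fbxo32 (atrogin-1) rose by 0.41 and 0.62, and the factors Foxo3 and Foxo4 by 0.62 and 0.56, while Foxo1 (0.10) did not pass. IL-10 1 was the highest heart for Irs2 and IL-10 3 the lowest, still above every saline heart. The number of higher genes was 7, 12 and 6 without saline 1, 2 and 3 and 9, 6 and 10 without IL-10 1, 2 and 3. Fbxo31, a ubiquitin ligase adaptor outside the list, was at 25.2, 33.5 and 27.6 CPM in the saline hearts and 78.2, 63.3 and 65.7 CPM in the IL-10 hearts (log2 fold change 1.26, SE 0.13; edgeR adjusted p = 2.41e-05). Trim63 was not called without saline 1, saline 3, IL-10 1 or IL-10 2 (edgeR adjusted p up to 0.106), and Fbxo32 not without saline 3, IL-10 2 or IL-10 3 (up to 0.131).

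The other genes of NAD metabolism that were called rose, opposite to Nmrk2. Nampt, the rate-limiting enzyme of NAD salvage from nicotinamide, was at 98.4, 113 and 85.8 CPM in the saline hearts and 179, 203 and 183 CPM in the IL-10 hearts (log2 fold change 0.93, SE 0.12; edgeR adjusted p = 0.000157). Nadk2, the mitochondrial NAD kinase, was at 30.2, 30.3 and 25.8 CPM in the saline hearts and 44.7, 48.3 and 48.1 CPM in the IL-10 hearts (log2 fold change 0.71, SE 0.11; edgeR adjusted p = 0.000740). These 2 rises and the fall of Nmrk2 were the calls among 14 tested genes of NAD metabolism.

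Several channel genes of heart muscle rose. Potassium channels repolarize the cell, and the sodium channel starts the action potential. Of 22 tested genes 10 rose and 0 fell (median 0.39). Scn4b, a beta subunit of the sodium channel, was at 3.95, 8.82 and 6.60 CPM in the saline hearts and 28.4, 26.5 and 20.7 CPM in the IL-10 hearts (log2 fold change 1.96, SE 0.21; edgeR adjusted p = 3.63e-05). Kcna5 and Kcnj11, pore subunits of the ultrarapid and of the ATP-sensitive potassium current, were at 13.4, 14.1 and 12.5 CPM in the saline hearts and 22.8, 21.1 and 25.2 CPM in the IL-10 hearts and at 50.2, 62.1 and 52.9 CPM in the saline hearts and 98.0, 88.9 and 80.5 CPM in the IL-10 hearts, with log2 fold changes of 0.79 and 0.69. Kcnip2, the subunit that supports the transient outward current, rose by 0.71 and Kcnh2 by 0.62, whereas the pore gene Kcnd2 (0.39) did not pass. Kcna7, a potassium channel outside the list, rose from 0.961 to 1.83 CPM in the saline hearts to between 3.31 and 5.04 CPM in the IL-10 hearts (log2 fold change 1.50, SE 0.31; edgeR adjusted p = 0.00482). The count stayed at 7 to 10 with any 1 heart left out.

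Receptors and calcium handling changed in single genes. Of 18 adrenergic and natriuretic signalling genes 5 rose and 0 fell. Adra1a, the alpha-1A adrenergic receptor, was at 5.49, 3.43 and 2.76 CPM in the saline hearts and 12.2, 9.40 and 8.30 CPM in the IL-10 hearts (log2 fold change 1.36, SE 0.24; edgeR adjusted p = 0.00164), and Adrb1, the beta-1 receptor, rose by 0.65. Slc8a1, the sodium-calcium exchanger, was at 435, 451 and 459 CPM in the saline hearts and 262, 322 and 272 CPM in the IL-10 hearts (log2 fold change -0.65, SE 0.12; edgeR adjusted p = 0.00192), opposite to the pump Atp2a2. Jph1, which couples the cell membrane to the calcium store, rose by 0.86. Among 13 tested thyroid hormone targets 5 rose and 1 fell. Thrsp, a regulator of lipid synthesis, was at 9.37, 12.1 and 11.9 CPM in the saline hearts and 29.8, 29.2 and 20.4 CPM in the IL-10 hearts (log2 fold change 1.25, SE 0.16; edgeR adjusted p = 0.000157). Dio3, which inactivates thyroid hormone, was at 5.20, 1.09 and 2.24 CPM in the saline hearts and 0.138, 0.514 and 0.633 CPM in the IL-10 hearts (log2 fold change -2.71, SE 0.58; edgeR adjusted p = 0.00565), on few counts. Of 19 genes of the cardiac transcription factor list 5 rose (26.3%, beside 6.86% of all tested genes) and 1 fell, Ankrd1, named above. The summed level of the list went from 6150 ± 1184 to 4466 ± 383 CPM (SD, n = 3 each). The rises were led by Klf15, a factor of fuel use, at 17.0, 15.3 and 14.6 CPM in the saline hearts and 29.7, 38.3 and 32.5 CPM in the IL-10 hearts (log2 fold change 1.10, SE 0.13; edgeR adjusted p = 7.68e-05). Tbx5 (0.24) and Mef2a (0.25) did not pass. The number of higher adrenergic and natriuretic genes was 1 without IL-10 2 and 2 without saline 3, and that of higher transcription factors was 1 without IL-10 2 and 2 without saline 1 or IL-10 1. Adrb1 was not called without saline 2, saline 3, IL-10 2 or IL-10 3 (edgeR adjusted p up to 0.0629).

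Enzymes of detoxification held the 2 rises of smallest adjusted p. Of 21 tested genes 10 rose and 1 fell (median 0.49). Ces1d (ENSMUSG00000056973, chromosome 8, 93166068 to 93197838), a carboxylesterase that splits triglyceride and drugs, was at 15.4, 17.1 and 18.0 CPM in the saline hearts and 53.4, 60.6 and 42.0 CPM in the IL-10 hearts (log2 fold change 1.63, SE 0.14; edgeR adjusted p = 4.55e-06). Gsta3 (ENSMUSG00000025934, chromosome 1, 21240589 to 21265661), a glutathione transferase, was at 6.08, 4.88 and 5.89 CPM in the saline hearts and 28.2, 20.8 and 19.0 CPM in the IL-10 hearts (log2 fold change 2.01, SE 0.18; edgeR adjusted p = 5.15e-06). Fmo2, a flavin monooxygenase, was at 16.2, 23.0 and 25.1 CPM in the saline hearts and 37.4, 43.3 and 49.0 CPM in the IL-10 hearts (log2 fold change 1.01, SE 0.15; edgeR adjusted p = 0.000501). Cyp4b1 was the gene that fell, by 0.64 on the log2 scale. The count of higher genes stayed at 9 to 11 with any 1 heart left out.

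Red blood cell genes fell in all 6 cases tested, with a median of -1.36. Hba-a1, alpha-globin, was at 161, 358 and 306 CPM in the saline hearts and 85.1, 107 and 138 CPM in the IL-10 hearts (log2 fold change -1.32, SE 0.22; edgeR adjusted p = 0.00119). Alas2, the first enzyme of haem synthesis in red cell precursors, was at 17.3, 30.5 and 24.5 CPM in the saline hearts and 5.59, 5.66 and 13.1 CPM in the IL-10 hearts (log2 fold change -1.57, SE 0.27; edgeR adjusted p = 0.00116). The summed level of the list was 586, 1194 and 954 CPM in the saline hearts and 301, 426 and 550.0 CPM in the IL-10 hearts, and saline 1 lay near the IL-10 hearts. The paired alpha-globin genes are near-identical, so their reads cannot be told apart with certainty. The part of blood left in the tissue in this and in the other differences was not tested.

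Immune cell lists were short, so their shares rest on few genes. Of all tested genes 6.86% were higher and 6.70% lower. Of 14 macrophage markers 1 rose (7.14%) and 2 fell (14.3%), with a median of 0.04 that became -0.0027 with upper-quartile scaling. Their summed level went from 912 ± 201 to 942 ± 105 CPM (SD, n = 3 each). Of 10 monocyte markers 3 fell (30%) and 0 rose. Ccr2, the receptor that draws monocytes into tissue, was at 33.2, 10.1 and 24.6 CPM in the saline hearts and 6.21, 11.6 and 8.93 CPM in the IL-10 hearts (log2 fold change -1.35, SE 0.31; edgeR adjusted p = 0.00836), with saline 2 inside the range of the IL-10 hearts (DESeq2 adjusted p = 0.078). Of the tested markers of neutrophils (4), dendritic cells (6), mast cells (5), T and NK cells (2) and B cells (1), 0 were called by edgeR, DESeq2 or limma-voom, and 1, of mast cells, had an unadjusted p under 0.05. Mgl2, a lectin of resident macrophages and dendritic cells, was at 10.7, 14.8 and 9.67 CPM in the saline hearts and 27.8, 32.8 and 35.6 CPM in the IL-10 hearts (log2 fold change 1.45, SE 0.16; edgeR adjusted p = 3.79e-05). Timd4, a receptor of long-lived resident macrophages, was at 1.90, 1.02 and 0.961 CPM in the saline hearts and 3.11, 3.38 and 4.57 CPM in the IL-10 hearts (log2 fold change 1.51, SE 0.33; edgeR adjusted p = 0.00698). In the other direction, the 2 macrophage markers that fell were Cd68 (log2 -0.61) and Lgmn (-0.45). Stab1, a macrophage scavenger receptor outside that list, had means of 86.3 CPM in saline and 56.8 CPM in IL-10 hearts (log2 -0.60, edgeR adjusted p = 0.0240). Cd68, Lgmn and Stab1 were named after their values were seen. Of vascular endothelial markers 1 of 15 rose (6.67%) and 3 fell (20%). Of lymphatic endothelial markers 3 of 8 rose and 1 fell, with Lyve1, which resident macrophages also express, at 38.6, 33.8 and 26.3 CPM in the saline hearts and 43.9, 56.4 and 63.2 CPM in the IL-10 hearts (log2 fold change 0.73, SE 0.15; edgeR adjusted p = 0.00446). Pericyte markers had 2 of 10 lower (20%) and 0 higher, with Cspg4 at log2 -0.89 and Pdgfrb at -0.49. These small counts moved when 1 heart was left out: 0 macrophage and 0 vascular endothelial markers were lower without saline 3, IL-10 1 or IL-10 2, 5 macrophage markers were lower without saline 2, and 1 monocyte marker was lower and 1 lymphatic marker higher without saline 1. Without IL-10 3, 1 neutrophil and 1 B cell marker were higher. With no filter on low counts, edgeR gave 6 lower and 1 higher of the same 10 monocyte markers and 4 lower of the 14 macrophage markers. Pdgfrb was not called without IL-10 2 (edgeR adjusted p up to 0.0617).

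Genes with at least 1 CPM in the 4 macrophage libraries and at least 10 times their heart level numbered 661 among those tested. Levels across the separately scaled tables only served to choose them. Of these, 12 were higher (1.82%, beside 6.86% of all tested genes) and 62 lower (9.38%, beside 6.70%), with a median of -0.19. Outside the reference lists 54 of 651 were lower, or 8.29%. The rule picks genes that are low in hearts beside macrophages, and few genes of low heart level were higher. Of all tested genes under 1 CPM, 1.71% were higher and 5.43% lower. Of those from 1 to 10 CPM, 2.62% were higher and 7.03% lower. Lgals3bp, a galectin ligand, was at 51.2, 56.5 and 54.3 CPM in the saline hearts and 25.5, 22.9 and 32.4 CPM in the IL-10 hearts (log2 fold change -1.0, SE 0.13; edgeR adjusted p = 0.000136). Soat1, which esterifies cholesterol, was at 16.3, 13.9 and 18.1 CPM in the saline hearts and 7.46, 6.76 and 9.07 CPM in the IL-10 hearts (log2 fold change -1.05, SE 0.16; edgeR adjusted p = 0.000654). Both were chosen after their values were seen, as the lower genes of smallest p in this set outside dividing-cell, interferon and matrix genes with Lilrb4a (-1.43). Higher genes in the set numbered 6 without IL-10 2, 15 without IL-10 1 and 20 with no filter on low counts. The number of lower genes was 31, 101 and 29 without saline 1, 2 and 3 and 35, 29 and 75 without IL-10 1, 2 and 3, and the median ran from -0.31 without saline 2 to -0.11 without saline 3.

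Clock output and stress responses were mixed. Of 17 circadian genes 6 rose and 1 fell. Nfil3 and Tef, both factors that read D-box elements, were at 10.2, 10.1 and 12.8 CPM in the saline hearts and 26.8, 19.5 and 17.1 CPM in the IL-10 hearts and at 47.6, 58.9 and 48.3 CPM in the saline hearts and 90.2, 75.8 and 71.1 CPM in the IL-10 hearts, with log2 fold changes of 0.94 and 0.62. The core clock genes Arntl (-0.11) and Clock (-0.14) and the output gene Dbp (-0.51) did not pass, and the time of day of tissue collection is not given. Higher genes numbered 3, 5 and 5 without saline 1, 2 and 3 and 4, 4 and 4 without IL-10 1, 2 and 3. Of 18 heat shock and folding genes 4 rose and 5 fell. Hspa1b, the inducible chaperone, was at 9.37, 7.87 and 9.35 CPM in the saline hearts and 18.6, 40.3 and 14.2 CPM in the IL-10 hearts (log2 fold change 1.46, SE 0.28; edgeR adjusted p = 0.00267), highest in IL-10 2, and the chaperonin subunits Cct3 and Cct2 fell by 0.52 and 0.40. Counts of higher genes were 3, 4 and 2 without saline 1, 2 and 3 and 5, 1 and 4 without IL-10 1, 2 and 3, and of lower genes 2, 4 and 2 without saline 1, 2 and 3 and 2, 3 and 2 without IL-10 1, 2 and 3. Of 20 ATF4 targets 3 rose and 4 fell. Ddit4, an inhibitor of mTOR signalling, was at 8.64, 10.1 and 15.2 CPM in the saline hearts and 45.8, 26.2 and 17.9 CPM in the IL-10 hearts (log2 fold change 1.40, SE 0.27; edgeR adjusted p = 0.00263), and Pycr1, of proline synthesis, at 4.17, 3.72 and 5.83 CPM in the saline hearts and 1.66, 1.69 and 1.62 CPM in the IL-10 hearts (log2 fold change -1.47, SE 0.28; edgeR adjusted p = 0.00265). The number of lower ATF4 targets was 1 without saline 1, IL-10 1 or IL-10 2. Cct2 was not called without saline 1, saline 3, IL-10 1, IL-10 2 or IL-10 3 (edgeR adjusted p up to 0.15).

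Several signalling lists had falls and few rises. Of 13 Wnt genes 4 fell and 0 rose. Nkd2, an inhibitor of Wnt signalling, was at 12.2, 14.9 and 20.2 CPM in the saline hearts and 5.25, 3.89 and 5.84 CPM in the IL-10 hearts (log2 fold change -1.66, SE 0.21; edgeR adjusted p = 0.000105), and the secreted antagonists Sfrp1 and Frzb fell by 1.13 and 0.77. Of 17 TGF-beta and activin genes 3 fell, and Tgfb2, a ligand, was at 39.2, 29.9 and 52.7 CPM in the saline hearts and 22.2, 19.6 and 20.6 CPM in the IL-10 hearts (log2 fold change -0.97, SE 0.16; edgeR adjusted p = 0.00117). Ccn2, a target of the pathway, had a log2 fold change of -0.52 and did not pass. Of 20 growth factors 4 fell and 1 rose, namely Vegfb, at 123, 130.2 and 129 CPM in the saline hearts and 225, 199 and 191 CPM in the IL-10 hearts (log2 fold change 0.69, SE 0.11; edgeR adjusted p = 0.000800). Without saline 3 or IL-10 2 the number of lower growth factors was 1, and without saline 2 or with no filter on low counts that of lower TGF-beta and activin genes was 5. The proteasome, with 1 of 25 higher and 1 lower, and translation factors, with 2 of 23 higher and 1 lower, stood near or below the background shares.

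Of 10 tested genes of a list of long non-coding RNAs, among them the nuclear Malat1 and Neat1, 6 fell and 0 rose (median -0.61). H19, named above with the fetal genes, is one of the 6. Malat1, a scaffold of nuclear speckles, was at 346, 418 and 307 CPM in the saline hearts and 162, 131 and 116 CPM in the IL-10 hearts (log2 fold change -1.39, SE 0.14; edgeR adjusted p = 2.47e-05). Meg3, an imprinted RNA, was at 16.0, 16.0 and 20.5 CPM in the saline hearts and 6.01, 3.89 and 4.29 CPM in the IL-10 hearts (log2 fold change -1.89, SE 0.19; edgeR adjusted p = 1.78e-05). Rian, from the same imprinted cluster, fell by 0.71, and Neat1, the scaffold of paraspeckles, by 0.51. The number of lower genes was 4, 5 and 5 without saline 1, 2 and 3 and 5, 3 and 4 without IL-10 1, 2 and 3. Of 20 splicing factors 3 fell and 1 rose. Over all classes of gene, 18 lincRNAs were higher and 11 lower of 224 tested, so long non-coding RNAs did not share a direction. Rian was not called without saline 1 or IL-10 2 (edgeR adjusted p up to 0.0826), and Neat1 not without saline 3, IL-10 2 or IL-10 3 (up to 0.136).

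Promoter letters were counted in 10203 tested genes matched to RefSeq promoters of the same length, on both strands. The letters TTTGAA or TTCGAA, the CHR element of cell cycle genes, stood in 22.6% of lower and 13.5% of higher genes beside 16.4% of all tested genes. Among lower genes outside the cell cycle list the share was 20.7%. Genes of dividing cells that the list does not hold, such as Hmmr, were not removed. This share therefore cannot tell whether the element is frequent beyond genes of dividing cells. The D-box TTATGTAA or TTACGTAA, read by Tef and Nfil3, stood in 1.67% of higher and 0.571% of lower genes beside 0.833% of all. The E-box CACGTG stood in 8.19% of higher and 8.71% of lower genes beside 11.7% of all. Shares of CCAAT, of the TEAD element GGAATG and of the AP-1 element TGAGTCA or TGACTCA were 42.2%, 15.8% and 5.00% in higher and 45.7%, 15.1% and 6.00% in lower genes, beside 42.6%, 14.6% and 4.66% of all. Over all 32851 promoters in the table the CHR, D-box and E-box shares were 19.2%, 1.06% and 7.15%. These letters are matches in a window and no binding was measured.

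The hearts of a group were about equally alike in both groups. The common biological coefficient of variation was 12.9% among saline and 12.9% among IL-10 hearts, and the median absolute deviation of a gene from its group mean was 0.10 to 0.13 on the log2 scale in the 6 hearts. The first principal component held 50.4% of the variance and separated the groups, with saline 2 and IL-10 3 closest to the other group, at -17.8 and 18.3, where the others lay at -30.5 and -32.7 and at 31.6 and 31.2. The second held 15.4% and spread the IL-10 hearts over -24.4, 8.54 and 21.8.

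**Figure D5:**
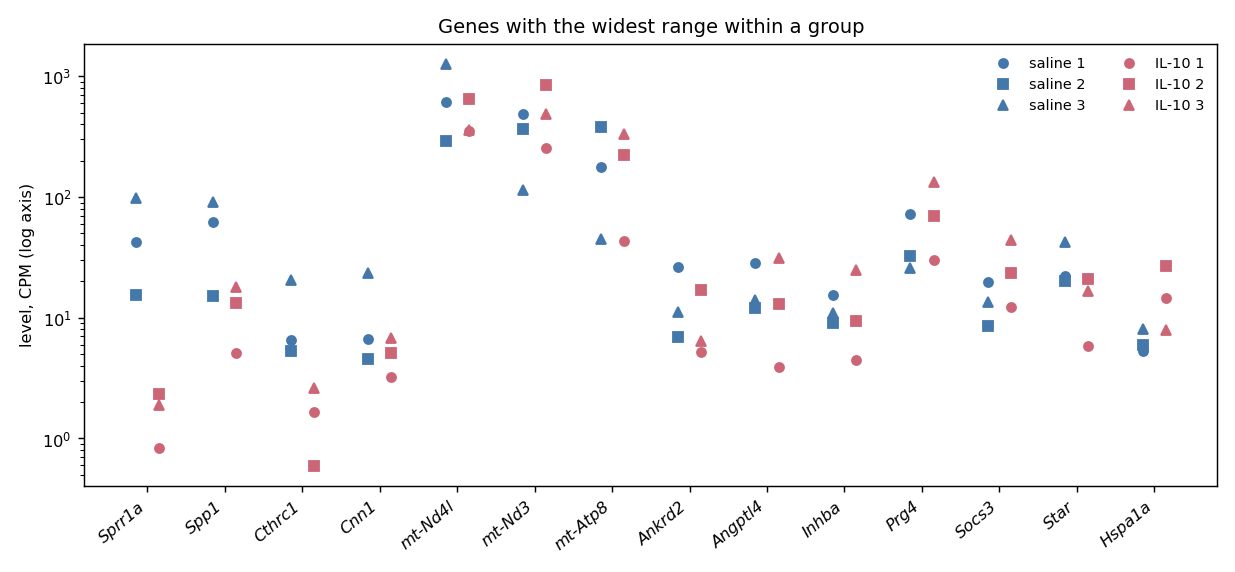
Level of 14 genes with the widest range of log2 CPM within a group (vertical, CPM, log axis), saline hearts in blue at left and IL-10 hearts in red at right of each gene, with the shape giving the replicate. Saline 3 is the highest saline heart for Sprr1a, Spp1, Cthrc1, Cnn1, mt-Nd4l and Star, and IL-10 3 the highest IL-10 heart for Angptl4, Inhba, Prg4 and Socs3.

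Genes that varied most within a group included some that differed by treatment and some that did not. Among saline hearts Spp1, the cytokine osteopontin, was at 61.8, 15.1 and 90.8 CPM, and among IL-10 hearts at 5.11, 13.1 and 18.0 CPM (log2 fold change -2.21, SE 0.46; edgeR adjusted p = 0.00440), with saline 2 inside the IL-10 range (DESeq2 adjusted p = 0.054). Cthrc1, a secreted protein of activated fibroblasts, was at 6.59, 5.32 and 20.5 CPM in the saline hearts and 1.66, 0.588 and 2.60 CPM in the IL-10 hearts (log2 fold change -2.74, SE 0.48; edgeR adjusted p = 0.00150), with saline 3 far above the others and the groups separate. Cnn1, the smooth muscle calponin, was at 6.66, 4.59 and 23.6 CPM in the saline hearts and 3.24, 5.14 and 6.75 CPM in the IL-10 hearts and did not pass (log2 -1.22). Saline 3 was the highest saline heart for all 3. Among IL-10 hearts Angptl4, an inhibitor of lipoprotein lipase, was at 3.94, 13.1 and 31.4 CPM, Inhba, a subunit of activin, at 4.49, 9.33 and 24.7 CPM, Prg4, a lubricating proteoglycan, at 30.2, 69.9 and 133.8 CPM, and Socs3, the STAT3-induced inhibitor of cytokine signalling, at 12.4, 23.3 and 43.7 CPM. For these 4 genes the IL-10 hearts stood in the same order, with IL-10 1 the lowest and IL-10 3 the highest. Their saline values were 12.1 to 28.2, 9.11 to 15.4, 25.6 to 72.0 and 8.53 to 19.7 CPM, so the groups overlapped, and none of the 4 passed the test. Hspa1a, an inducible chaperone, was at 5.34, 5.91 and 8.01 CPM in the saline hearts and 14.7, 26.7 and 7.94 CPM in the IL-10 hearts and was called (log2 1.35) although IL-10 3 lay within the saline range. mt-Atp8 ran from 44.7 to 381 CPM among saline hearts and from 43.3 to 336 CPM among IL-10 hearts, mt-Nd3 from 114 to 483 and from 254 to 842 CPM, and mt-Nd4l from 291 to 1262 and from 353 to 654 CPM. Hspa1a was not called without IL-10 2 (edgeR adjusted p up to 0.0763).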

How the data were processed

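RNA of 6 hearts was sequenced. Libraries were made from poly(A) RNA with a NEBNext Ultra kit, which does not mark strand, per the labels' protocols. The protocol text names livers, while the sample labels name hearts. The authors deposited raw counts per Ensembl gene. The submitters' processing notes list HISAT2 2.2.1 and featureCounts, and both GRCm39 and mm10, so the build is not settled. Coordinates printed here are those of GENCODE M21 on GRCm38, which named 52081 of 55357 gene identifiers, and 0 value columns lacked a sample.

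Counts were filtered (filterByExpr of edgeR, minimum count 10, minimum total 15), TMM-scaled and compared between the groups with the quasi-likelihood test of edgeR 4.0.16 in R 4.3.3, with Benjamini-Hochberg adjustment over all 13718 tested genes and a threshold of 0.05. SE is the size of the log2 fold change over the root of its quasi-likelihood F. CPM are on TMM-scaled library sizes, and list sums add the CPM of all listed genes that were counted, also those below the filter. Libraries of 13.5 to 14.9 M counts make 3 counts equal to 0.201 to 0.222 CPM before TMM scaling. On data simulated once with 200 changed genes among 13718, the test recovered 78% of 2-fold and 97% of 4-fold changes, with 3 false calls. The simulated spread followed only the trend with level, without the scatter of single genes. In the real hearts 13.6% of genes were called, so these figures do not give the error rates of the real comparison. Macrophage libraries, counted in a table of their own, served only to choose macrophage-enriched genes.

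The comparison, its members and the 74 gene lists were chosen with earlier results of these data known, and 7 more lists after the values were seen. Genes were named by rule, outside pseudogenes, predicted genes and the cell cycle, matrix and interferon lists: the largest and the most significant changes, the largest differences in CPM, the members of smallest p of each list, the genes most variable within a group, and the highest expressed. Other genes named beside a count were chosen after their values were seen. Alternatives were DESeq2 1.42.0 size factors and Wald test, upper-quartile scaling, limma-voom (limma 3.58.1), other filters, omission of mitochondrial genes, a fold threshold, a replicate block and omission of each heart.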

Additional observations from a re-analysis of the deposited data

How the results depend on the processing

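Beside 941 higher and 919 lower genes, DESeq2 size factors gave 965 and 901, upper-quartile scaling 716 and 1120, no filter on low counts 1133 and 1115, a filter of 1 CPM 956 and 956, the DESeq2 Wald test 999 and 880, limma-voom 932 and 880, and omission of mitochondrial genes 940 and 918. With an added absolute log2 fold change of 1 the counts were 111 and 343. With the replicate number as a block they were 772 and 751. Same-numbered hearts of the groups had correlations of their deviations of -0.179, 0.042 and 0.0034, and different-numbered hearts had -0.124 to 0.134. Not every heart correlated best with its own number. Deviations add up to 0 over the 3 hearts of a group, so these values cannot exclude a pairing by number. With each heart left out the higher genes ran from 450 to 1082 and the lower from 447 to 1012. The median of macrophage-enriched genes ran from -0.314 to -0.107. Of 152 called genes named in the text, 118 were called in every alternative run other than the fold threshold, and 0 changed sign. Cd68, Lgmn and Stab1 are not in these counts or in those that follow. The call was lost in 5 with upper-quartile scaling, 6 by the DESeq2 Wald test, 4 with the replicate block, 0 by limma-voom, 21, 2 and 17 without saline 1, 2 and 3, and 14, 30 and 7 without IL-10 1, 2 and 3. The cause was not tested. Among named genes that did not pass, the log2 fold change took the other sign with upper-quartile scaling for Fap (-0.0153) and Map4 (-0.00421), by limma-voom for Inhba (-0.193) and mt-Atp8 (0.0301), and with the replicate block for Inhba (-0.0975). With each heart left out in turn it ran over both signs, for Tnnt2 from -0.0851 to 0.0379, Fap from -0.0621 to 0.102, Hspb7 from -0.0801 to 0.0273, Acta1 from -0.0115 to 0.425, Myh6 from -0.0357 to 0.25, Il10ra from -0.384 to 0.232. The same held for Map4 from -0.0302 to 0.0996, Inhba from -0.768 to 0.535, Angptl4 from -1.09 to 0.307, mt-Atp8 from -0.589 to 0.855, mt-Nd4l from -1.04 to 0.016. Upper-quartile scaling also turned the sign of the median of the heat shock list, to -0.043, and of the Wnt list, to -0.041. Levels under 3 counts, or 0.201 to 0.222 CPM before TMM scaling, are not resolved in 1 heart.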

Other observations

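Further gene groups were gathered after the values had been seen, so their counts only describe. Of 32 tested genes of the secretory pathway, which carries proteins from the endoplasmic reticulum to the Golgi, 10 were lower and 0 higher (median -0.24). Kdelr3, a receptor that returns escaped chaperones, was at 24.3, 20.0 and 30.1 CPM in the saline hearts and 11, 12.6 and 15.2 CPM in the IL-10 hearts (log2 fold change -0.94, SE 0.16; edgeR adjusted p = 0.00142), and Copg1, a coat subunit of retrograde vesicles, had a log2 fold change of -0.64. The number of lower genes was 8, 11 and 7 without saline 1, 2 and 3 and 7, 6 and 11 without IL-10 1, 2 and 3. Of 18 genes of intermediate filaments and of linkers between membrane and actin cortex 12 were lower and 0 higher, and 12 with any 1 heart left out. Nes, the intermediate filament nestin, was at 81.4, 59.0 and 70.4 CPM in the saline hearts and 33.8, 30.2 and 42.0 CPM in the IL-10 hearts (log2 fold change -0.99, SE 0.14; edgeR adjusted p = 0.000345), Vim, vimentin, had a log2 fold change of -0.75, and Msn, the cortical linker moesin, one of -0.79, while Des, the desmin of muscle, stood at -0.23 and did not pass. Of 28 transcripts known to keep introns in the nucleus 15 were lower and 0 higher, with Leng8 at 51.0, 52.9 and 57.1 CPM in the saline hearts and 33.9, 22.1 and 26.4 CPM in the IL-10 hearts (log2 fold change -0.97, SE 0.14; edgeR adjusted p = 0.000372). The number of lower genes was 10, 10 and 11 without saline 1, 2 and 3 and 12, 7 and 12 without IL-10 1, 2 and 3.

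Of 16 genes of the acute phase and of C/EBP factors 7 were higher and 1 lower (median 0.82). Lrg1, a secreted leucine-rich glycoprotein, was at 21.6, 18.4 and 23.7 CPM in the saline hearts and 44.5, 58.8 and 61.2 CPM in the IL-10 hearts (log2 fold change 1.37, SE 0.14; edgeR adjusted p = 2.41e-05). Cebpb, a factor of the acute phase, was at 18.7, 16.8 and 16.6 CPM in the saline hearts and 38.9, 40.9 and 33.8 CPM in the IL-10 hearts (log2 fold change 1.13, SE 0.12; edgeR adjusted p = 3.61e-05), and its relative Cebpd had a log2 fold change of 1.05. Lcn2, the siderophore-binding lipocalin, was at 31.8, 32.1 and 29.5 CPM in the saline hearts and 33.9, 92.9 and 72.6 CPM in the IL-10 hearts (log2 fold change 1.09, SE 0.24; edgeR adjusted p = 0.00598), with IL-10 1 next to the saline hearts, and was not called without IL-10 2 (log2 0.78, edgeR adjusted p = 0.056). Of 15 tested ASB genes, adaptors of ubiquitin ligases that include muscle members, 6 were higher and 0 lower, with Asb15 at 25.5, 32.0 and 18.0 CPM in the saline hearts and 43.7, 49.8 and 48.6 CPM in the IL-10 hearts (log2 fold change 0.91, SE 0.16; edgeR adjusted p = 0.00142). The number of higher ASB genes was 3, 6 and 4 without saline 1, 2 and 3 and 5, 3 and 5 without IL-10 1, 2 and 3. Of 6 galectin genes 3 were lower, with Lgals3, galectin 3, at 24.4, 16.1 and 37.1 CPM in the saline hearts and 9.11, 11.1 and 12.9 CPM in the IL-10 hearts (log2 fold change -1.24, SE 0.23; edgeR adjusted p = 0.00210). Iron genes, looked up singly, differed in direction: Tfrc, the transferrin receptor, was at 218, 269.7 and 229 CPM in the saline hearts and 143, 182 and 102 CPM in the IL-10 hearts (log2 fold change -0.75, SE 0.16; edgeR adjusted p = 0.00680), and Fth1, the ferritin heavy chain, at 1094, 1097 and 1159 CPM in the saline hearts and 1606, 1541 and 1528 CPM in the IL-10 hearts (log2 fold change 0.48, SE 0.12; edgeR adjusted p = 0.0148). Retnla, a secreted protein of alternatively activated macrophages and fat, was at 0.293, 0.0729 and 0.128 CPM in the saline hearts and 1.04, 2.06 and 1.27 CPM in the IL-10 hearts (log2 fold change 3.08, SE 0.57; edgeR adjusted p = 0.00212), on 4, 1 and 2 counts in the saline hearts. Fth1 was not called without saline 1 or IL-10 2 (edgeR adjusted p up to 0.0779).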
